A study of Mus musculus with 18 samples.

Results

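The 10 genes described here act in glycolysis or in the response to low oxygen: Slc2a1, Hk2, Pfkp, Pgk1, Pgam1 and Ldha in the first group, and Adm, Vegfa, Bnip3 and Ankrd37 in the second. They were taken from a list of names, and 15 of the 21789 probe sets annotated to 1 gene symbol belonged to them, which left 10 of the 19938 genes tested. All 10 were measured, and no filter on low values was applied. The list was drawn up with earlier results of these arrays known, so the number of its members that changed is a description and not independent evidence.

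RNA came from wild type mouse embryonic fibroblasts of C57BL/6 background, grown out of embryos at embryonic day 13 and, per the labels, derived from 2 mice. All cultures had received 100 nM dexamethasone, a synthetic glucocorticoid used to bring cellular clocks into step, for 2 h, a step the labels also call a serum shock, and no untreated culture is analysed here. Samples were taken 22, 26, 30, 34, 40 and 46 h afterwards, giving 18 arrays in 6 groups of 3, which the labels name biological replicates. No label describes separate cultures, so the p-values reflect only the spread between these arrays, which may be technical. The labels describe the culture medium in differing ways and do not state oxygen, glucose or cell density.

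Levels below are quantile normalized log2(intensity + 16), and a difference on this scale understates the change of a dim gene. The SD of the 3 arrays of a time was 0.01 to 0.21 over the 10 genes, and an error after a difference is its SE. Array medians of the deposited values lay between 196 and 210 intensity units. They were 198 to 202 at 22 h and 209 to 210 at 46 h, without overlap, so brightness differed between these times before normalization. The median correlation of an array with the others over all genes was 0.992 to 0.997. Replicate 2 at 22 h and replicate 2 at 40 h lay at opposite ends of the component that held 33.8% of the variance within times, and results that rest on them are given without them. Of 9 measured fibroblast markers, 7 were in the brightest 25% of genes, while 8 of 8 endothelial, 8 of 8 macrophage and 8 of 8 epithelial markers were below the median of all genes, as were 5 of 8 skeletal muscle and 5 of 8 neural markers, a rough ranking since probe sets differ in brightness for the same amount of RNA.

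Glycolysis splits glucose into pyruvate in the cytosol, and lactate dehydrogenase can then turn pyruvate into lactate. When oxygen is low, hypoxia-inducible factors (HIF), each an alpha subunit paired with ARNT, build up because the alpha subunit is no longer marked for destruction by prolyl hydroxylases and the VHL ligase. They raise the transcription of most glycolytic genes and of genes for blood vessel growth and mitochondrial turnover. In fibroblasts many of these genes are also transcribed at normal oxygen, and MYC is another known activator of several of them.

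Between 22 h and 46 h the group split by direction. All 6 glycolytic genes were lower at 46 h, by 0.33 to 0.59 log2, as were Bnip3 and Ankrd37, whereas Adm was higher by 0.80 and Vegfa by 0.18. In limma's test 10 of 10 passed at an adjusted p under 0.05, against 21.2% of all genes, with 8 lower (9.73% of all genes) and 2 higher (11.5%). The 46 h and 22 h arrays did not overlap for any of the 10, while 15.3% of all genes were lower and 21.3% higher without overlap. The median difference was -0.39 log2 over the 10 genes and 0.03 over all genes. In bulk RNA fewer cells of a kind and less RNA per cell cannot be told apart, here or below. The 8 falls passed with the values as deposited and with arrays shifted to a common median too, under which 63.9% and 36.1% of all calls were rises, instead of 54.2%.

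**Figure D1:**
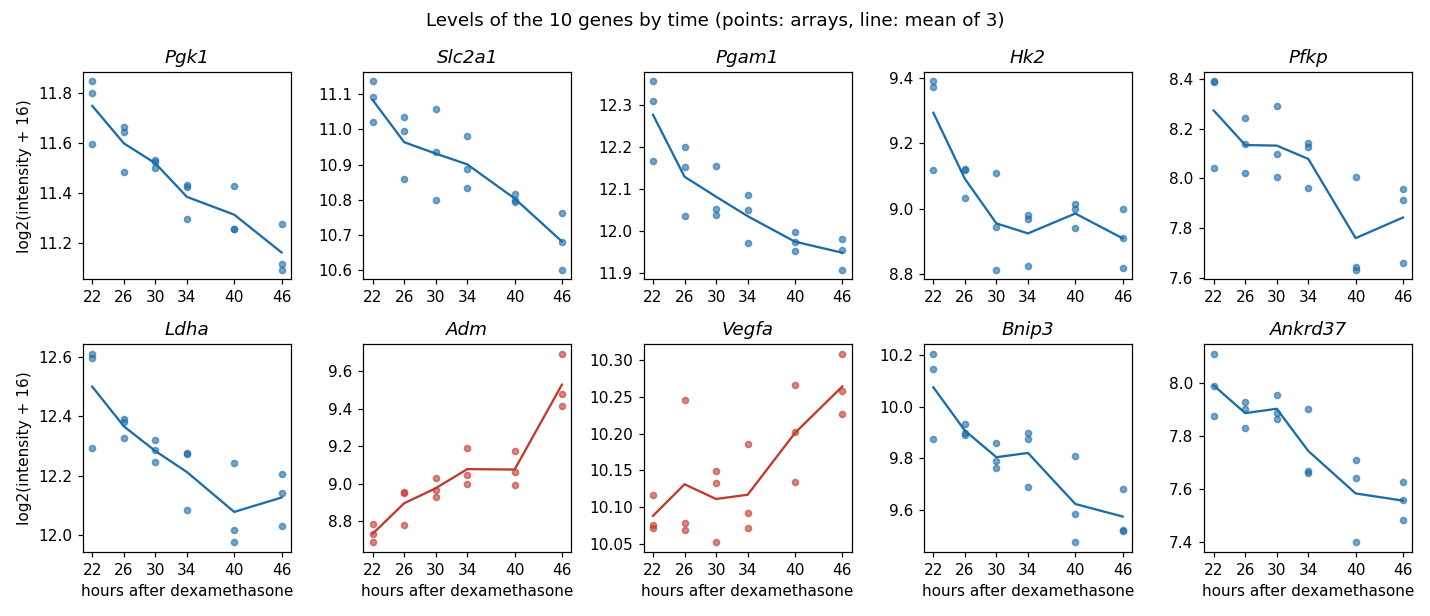
Level of each gene, as log2(intensity + 16), against hours after dexamethasone. Points are the 3 arrays of a time and lines join their means; blue marks genes lower at 46 h than at 22 h and red genes that were higher; each panel has its own vertical scale. The 8 blue genes have their highest mean at 22 h, and Adm and Vegfa their highest at 46 h.

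HIF binds a short core, ACGTG or GCGTG, so the 250 bases before the RefSeq start (GRCm38.p6) were searched for both letter strings on both strands. ACGTG occurred in a window of 8 of the 10 genes and in 8 of their 12 windows, against 16.6% of 32851 such windows. The 2 genes without it were Pfkp and Adm. GCGTG occurred in 8 of the 12 windows, against 28.2% of all. The E-box CACGTG, which the circadian CLOCK and BMAL proteins bind, contains ACGTG on both strands; it stood upstream of Ldha and Bnip3, and in 6.02% of all windows. Of the 2 Vegfa windows, that at chr17:46032378-46032627 held neither core. The other, at chr17:46025164-46025413, lies downstream of it on the minus strand and held both. Vegfa is among the 8 genes with ACGTG through that downstream window alone. A match describes letters in the window and shows no binding. The windows of the gene with the largest fall, of Ldha with its 2 E-boxes, of Ankrd37 and of the gene that rose most are printed 5′ to 3′ on the gene's strand, with ACGTG and GCGTG cores of either strand in capitals.
Pgk1 (chrX:106186850-106187099, plus strand): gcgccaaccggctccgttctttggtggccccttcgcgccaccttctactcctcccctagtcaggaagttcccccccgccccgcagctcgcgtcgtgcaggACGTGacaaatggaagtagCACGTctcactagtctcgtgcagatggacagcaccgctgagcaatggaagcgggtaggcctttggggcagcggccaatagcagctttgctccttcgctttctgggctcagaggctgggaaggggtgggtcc
Ldha (chr7:46845554-46845803, plus strand): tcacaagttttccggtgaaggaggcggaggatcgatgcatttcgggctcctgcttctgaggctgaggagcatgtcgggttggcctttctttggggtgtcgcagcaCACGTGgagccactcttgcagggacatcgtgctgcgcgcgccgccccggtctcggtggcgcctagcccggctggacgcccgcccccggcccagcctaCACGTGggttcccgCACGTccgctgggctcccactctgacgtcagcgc
Ankrd37 (chr8:45999851-46000100, minus strand): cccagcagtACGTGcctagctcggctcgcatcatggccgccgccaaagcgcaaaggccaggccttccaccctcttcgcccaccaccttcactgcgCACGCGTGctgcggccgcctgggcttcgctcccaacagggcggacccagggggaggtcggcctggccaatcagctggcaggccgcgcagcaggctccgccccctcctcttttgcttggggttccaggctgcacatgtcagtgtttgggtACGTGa
Adm (chr7:110627407-110627656, plus strand): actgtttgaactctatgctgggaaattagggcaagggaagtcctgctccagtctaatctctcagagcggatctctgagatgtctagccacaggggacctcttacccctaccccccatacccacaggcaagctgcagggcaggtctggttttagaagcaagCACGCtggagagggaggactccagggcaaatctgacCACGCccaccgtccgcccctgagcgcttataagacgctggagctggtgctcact
GCGTG stood in windows of genes that were higher and of genes that were lower at 46 h: those of Adm, which rose, and of Pfkp, which fell, hold only GCGTG. For the 2 genes that rose, ACGTG was found only in the downstream Vegfa window, and the other 7 genes with ACGTG fell. Whether either form bears on the direction of change was not tested.

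Slc2a1, on chromosome 4, encodes GLUT1, the transporter through which fibroblasts take up glucose. Its level was 10.60, 10.76 and 10.68 in the 46 h arrays, against 11.09, 11.02 and 11.14 in the 22 h arrays. The means at 26, 30, 34 and 40 h were 10.96, 10.93, 10.90 and 10.80, so each time lay below the one before. The groups at 40 h and 46 h did not overlap, nor did those at 34 h and 40 h, while the other neighbours in this order did. The difference between 46 h and 22 h was -0.40 ± 0.07 log2 (SE, n = 3 arrays per time; adjusted p = 0.000349, limma).

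Hk2, on chromosome 6, encodes the inducible hexokinase that traps glucose in the cell as its phosphate. It stood at 8.82, 9.0 and 8.91 at 46 h, against 9.39, 9.12 and 9.37 at 22 h, a difference of -0.38 ± 0.08. The arrays of 26 h gave 9.12, 9.03 and 9.12, those of 30 h 8.94, 9.11 and 8.81, those of 34 h 8.97, 8.98 and 8.82, and those of 40 h 9.0, 9.01 and 8.94. In the order of the means, only the neighbours 26 h and 40 h did not overlap. The change from 22 h to 34 h was -0.37 ± 0.08, and that between 34 h and 46 h was -0.01, with a 95% interval of -0.18 to 0.15. Its change over the 6 times (adjusted p = 0.0126, limma's F test) no longer passed without replicate 1 or replicate 3 at 22 h (adjusted p = 0.0743 and 0.0748).

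Pfkp, on chromosome 13, encodes the platelet form of phosphofructokinase, which catalyses the committed step of glycolysis. The 46 h arrays read 7.96, 7.66 and 7.91, and the 22 h arrays 8.39, 8.04 and 8.39. Its lowest mean was at 40 h, 7.76 ± 0.21 (SD, n = 3), with arrays at 7.64, 8.01 and 7.63. The means of 26, 30 and 34 h were close together at 8.13, 8.13 and 8.08. The fall of 0.43 between 22 h and 46 h (SE 0.12, adjusted p = 0.0127, limma) was lost without replicate 1 or 3 at 22 h or replicate 2 at 46 h, with adjusted p from 0.0641 to 0.0755. The change over the 6 times was lost without replicate 1 or 3 at 22 h or replicate 1 or 3 at 40 h, with adjusted p from 0.0563 to 0.0638.

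Pgk1, on chromosome X, encodes phosphoglycerate kinase, the first enzyme of the pathway to yield ATP, and had the largest fall of the 10. Its arrays read 11.28, 11.09 and 11.12 at 46 h, against 11.80, 11.60 and 11.85 at 22 h. In between, the arrays of 26 h read 11.64, 11.48 and 11.66, those of 30 h 11.50, 11.53 and 11.52, those of 34 h 11.42, 11.43 and 11.29, and those of 40 h 11.25, 11.43 and 11.25. The means descended at every step, and the arrays of 30 h and 34 h did not overlap. The level at 46 h was 0.666 times that at 22 h (-0.59 ± 0.07 log2, adjusted p = 2.14e-05, limma). A fall of 0.36 ± 0.07 had been reached at 34 h (adjusted p = 0.00482), and the further -0.22 ± 0.07 between 34 h and 46 h did not pass (adjusted p = 0.128). Of the 3 Pgk1 probe sets, 2 held identical values on all 18 arrays and the other correlated with them at 0.9997, so they are not separate measurements, and transcripts of Pgk1-like retrocopies cannot be told apart from Pgk1.

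Pgam1, on chromosome 19, encodes phosphoglycerate mutase, the next enzyme in the pathway. It stood at 11.96, 11.98 and 11.91 at 46 h, against 12.36, 12.16 and 12.31 at 22 h, a difference of -0.33 ± 0.06 (adjusted p = 0.000605, limma). The means at 26, 30, 34 and 40 h were 12.13, 12.08, 12.03 and 11.97, each below the one before, with all neighbouring groups overlapping. The other 2 Pgam1 probe sets were identical to each other on the 18 arrays and gave -0.38 ± 0.06 when each probe set was tested on its own; Pgam1 also has near-identical copies.

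Ldha, on chromosome 7, encodes the lactate dehydrogenase subunit that favours the making of lactate. Its arrays read 12.20, 12.03 and 12.14 at 46 h, against 12.60, 12.29 and 12.61 at 22 h (-0.37 ± 0.09, adjusted p = 0.0044, limma). Those of 26 h were at 12.33, 12.39 and 12.38, those of 30 h at 12.25, 12.29 and 12.32, those of 34 h at 12.28, 12.27 and 12.09, and those of 40 h at 11.98, 12.24 and 12.02. Its lowest mean, 12.08, was therefore at 40 h, although the 40 h and 46 h arrays overlapped. The difference between 34 h and 22 h was -0.29 ± 0.09 (adjusted p = 0.0422), and this call was lost without any 1 of 11 of the 18 arrays, with adjusted p up to 0.201; it was kept without replicate 2 at 22 h or at 40 h. Ldha has near-identical copies, whose transcripts cannot be told apart from its own here.

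Adm, on chromosome 7, encodes adrenomedullin, a secreted peptide that widens blood vessels and a HIF target in many cell types. Its 46 h arrays read 9.48, 9.41 and 9.69, against 8.78, 8.73 and 8.69 at 22 h. The arrays of 26 h read 8.78, 8.95 and 8.96, those of 30 h 8.93, 9.03 and 8.97, those of 34 h 9.0, 9.05 and 9.19, and those of 40 h 9.17, 8.99 and 9.06. All 3 arrays of 46 h lay above every other array, and the means of 34 h and 40 h were both 9.08. The level at 46 h was 1.74 times that at 22 h (0.80 ± 0.08 log2, adjusted p = 6.72e-07, limma). Adm rose by 0.35 ± 0.08 between 22 h and 34 h (adjusted p = 0.00722) and by 0.45 ± 0.08 between 34 h and 46 h (adjusted p = 0.00179); the first of these was lost without replicate 3 at 34 h (0.29, adjusted p = 0.0522).

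Vegfa, on chromosome 17, encodes the growth factor that drives the sprouting of blood vessels. It moved little, standing at 10.26, 10.31 and 10.23 at 46 h, against 10.07, 10.12 and 10.08 at 22 h. The means were 10.13, 10.11, 10.12 and 10.20 at 26, 30, 34 and 40 h, and neighbouring groups overlapped throughout. Its rise of 0.18 ± 0.06 (adjusted p = 0.0335, limma) had a 95% interval of 0.06 to 0.30. The call was lost with the values as deposited (0.14, adjusted p = 0.0673), with arrays shifted to a common median (0.07, adjusted p = 0.371), and without replicate 1 or 3 at 22 h or any 1 of the 3 replicates at 46 h (adjusted p from 0.0505 to 0.122), and when only the arrays of the 2 times were fitted (adjusted p = 0.0504). The change over the 6 times did not pass (adjusted p = 0.143).

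Bnip3, on chromosome 7, encodes a protein of the outer mitochondrial membrane that promotes the removal of mitochondria. In the probe set with the higher mean, the 46 h arrays read 9.68, 9.52 and 9.52, against 10.15, 9.87 and 10.21 at 22 h (-0.50 ± 0.09, adjusted p = 0.000605, limma). The means were 9.91, 9.80, 9.82 and 9.62 at 26, 30, 34 and 40 h, with neighbouring groups overlapping. The second Bnip3 probe set, 10568785, read 9.25, 9.20 and 9.01 at 46 h, against 9.45, 9.31 and 9.47 at 22 h. When each probe set was tested on its own it differed by -0.26 ± 0.09 (adjusted p = 0.0398), and its change over the 6 times did not pass (adjusted p = 0.138), whereas the brighter one did (adjusted p = 0.00538). The size of the Bnip3 fall is therefore uncertain, and Bnip3 also has near-identical copies that either probe set may read.

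Ankrd37, on chromosome 8, encodes an ankyrin repeat protein known chiefly as a HIF target. It read 7.63, 7.49 and 7.56 at 46 h, against 7.99, 7.88 and 8.11 at 22 h, a difference of -0.43 ± 0.08 (adjusted p = 0.00101, limma). The means of 26 h and 30 h were 7.89 and 7.90, followed by 7.74 at 34 h and 7.58 at 40 h. All neighbouring groups overlapped.

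**Figure D2:**
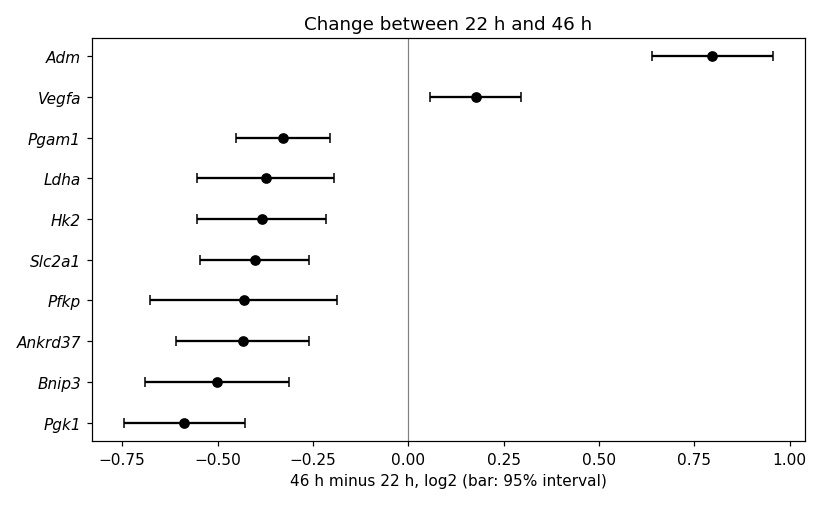
Difference between 46 h and 22 h in log2 for each of the 10 genes, with the 95% interval of limma's fit (n = 3 arrays per time, not adjusted for the number of genes). Adm (0.80) and Vegfa (0.18) lie above 0 and the other 8 genes lie below it, from -0.33 for Pgam1 to -0.59 for Pgk1.

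Over the 6 times, 9 of the 10 genes passed the F test, against 19.8% of all genes. Vegfa was the exception, and Bnip3 passed only in the brighter of its 2 probe sets (adjusted p = 0.138 for the other, F test of each probe set on its own). Of the 9 genes that passed, 8 had their highest mean at 22 h (6.19% of all genes were called and highest there), and 6 had their lowest at 46 h (6.09%). A 24 h cosine, whose fitted level at 46 h equals that at 22 h, was tried next. In limma's cosine fit 0 of 10 passed, against 0.828% of all genes, with adjusted p from 0.193 to 0.722 and amplitudes of 0.05 to 0.19 log2. At an unadjusted p under 0.05, 2 of the 10 passed, against 21.3% of all genes. With a period of 26 h, Ankrd37 passed (adjusted p = 0.0384, against 0.193 with 24 h).

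The interval was also taken in 2 parts. Between 22 h and 34 h, 5 of 10 genes passed (9.44% of all genes): Pgk1, Hk2, Pgam1 and Ldha fell (4.1% of all genes) and Adm rose (5.34%). Of these, Pgam1 was lost without replicate 1 or 3 at 22 h or 3 at 34 h and Hk2 without replicate 1 at 22 h (adjusted p from 0.0552 to 0.1). With only the arrays of the 2 times fitted, Pgam1 (adjusted p = 0.0836) and Ldha (adjusted p = 0.128) were lost. Slc2a1 passed as lower with the values as deposited and with a common array median (adjusted p = 0.0368 and 0.0488). Between 34 h and 46 h, 1 of 10 passed (3.57% of all genes), Adm as a rise (1.06%), while the other 9 had values from -0.25 for Bnip3 to 0.15 for Vegfa. In that comparison 0 of 10 fell at the adjusted threshold by limma (2.51% of all genes). At an unadjusted p under 0.05, 6 of 10 passed in either direction, against 15.6% of all genes, and 4 of the 10 were lower. Both parts share the 34 h arrays, and whether a gene's changes in them differed was not tested. Of all calls between 34 h and 46 h, 29.6% were rises, and 44.3% with the values as deposited or 12.4% with arrays shifted to a common median.

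The 8 genes that fell deviated together in single arrays. Replicate 2 at 22 h was the lowest of its time for all 8 genes that fell, and replicate 2 at 40 h the highest of its time for 7 of the 8. Without replicate 2 at 22 h, 7 members passed between 22 h and 34 h instead of 5, since Bnip3 (adjusted p = 0.0108) and Ankrd37 (adjusted p = 0.0283) were added; without replicate 1 at 22 h or 3 at 34 h, 2 passed, and without replicate 3 at 22 h, 3 did. The count over all genes moved with them, to 3179 without replicate 2 at 22 h, 737 without replicate 1, 915 without replicate 3, and 923 without replicate 3 at 34 h, against 1882 with all arrays. Without replicate 2 at 40 h, 6 members passed, Bnip3 being added (adjusted p = 0.0494), and 2153 genes in all. The 10 calls between 22 h and 46 h were all made without replicate 2 at 22 h or at 40 h, and became 8 without replicate 1 or 3 at 22 h or 2 at 46 h, where 2789, 2868 and 3048 of all genes passed instead of 4234. Over the 18 arrays the 28 pairs among the 8 genes correlated with a median Pearson r of 0.84 (0.46 to 0.94), and Adm correlated with them at -0.87 to -0.58. These values describe arrays that share their times and their RNA, and carry no test.

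Cell division and fibroblast markers moved over the same hours. All 9 measured genes of a mitosis list fell between 22 h and 46 h, against 9.73% of all genes. Among them were the kinase genes Aurka (-1.47) and Plk1 (-1.48), the cyclin gene Ccna2 (-1.37), Mki67 (-1.40), Cdc20 (-1.65) and the kinesin gene Kif11 (-1.54). The summed level of the 9 was 12.89 to 13.10 log2 at 46 h, against 14.18 to 14.42 at 22 h. Of 9 fibroblast markers 6 rose, against 11.5% of all genes. The summed level of these markers was 15.73 to 15.77 at 46 h, against 15.44 to 15.57 at 22 h. Their part in the changes of the 10 genes was not tested.

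Beyond the 10 genes, 15 further enzymes and transporters of glycolysis were measured. Of these 4 fell (9.73% of all genes) and 2 rose, a share near the 11.5% of all genes, with a median of -0.05 (0.03 over all genes). Pfkl, the liver form of phosphofructokinase, was lower at 46 h, at 9.78, 9.88 and 9.54 against 10.36, 10.37 and 10.48 at 22 h (-0.67 ± 0.13, adjusted p = 0.00107, limma). Tpi1, triose phosphate isomerase, fell by 0.38, the pyruvate kinase gene Pkm by 0.39 and the aldolase gene Aldoa by 0.29. Slc16a3, the lactate exporter MCT4, rose by 0.23, but not without replicate 1 or 3 at 22 h or replicate 2 at 46 h (adjusted p from 0.0613 to 0.109). Forms restricted to liver, muscle or testis, such as Pgk2, Ldhc and Pgam2, lay between -0.17 and 0.15. Of 11 measured, 0 passed by limma (21.2% of all genes) and 1 had an unadjusted p under 0.05 (33.5% of all genes). With the values as deposited 2 were called higher, and 1 with a common array median. Of the 11, 10 were below the median level of all genes, where this scale understates a change.

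Ldhb, which encodes the other main subunit of lactate dehydrogenase, went the opposite way to Ldha. It read 11.11, 11.07 and 11.06 at 46 h, against 10.44, 10.70 and 10.55 at 22 h (0.52 ± 0.06, adjusted p = 6.60e-06, limma). Within each array the log2 difference of Ldhb and Ldha, set to the mean of 22 h, was 0.84, 0.98 and 0.85 at 46 h, against -0.22, 0.35 and -0.12 at 22 h. The ratio of Ldhb to Ldha at 46 h was thus 1.85 times that at 22 h, and the groups did not overlap (exact permutation test over arrays, two-sided p = 0.1, the smallest that 20 assignments allow). The limit on telling Ldha from its copies holds for this ratio too. This pair was picked after its values were seen.

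**Figure D3:**
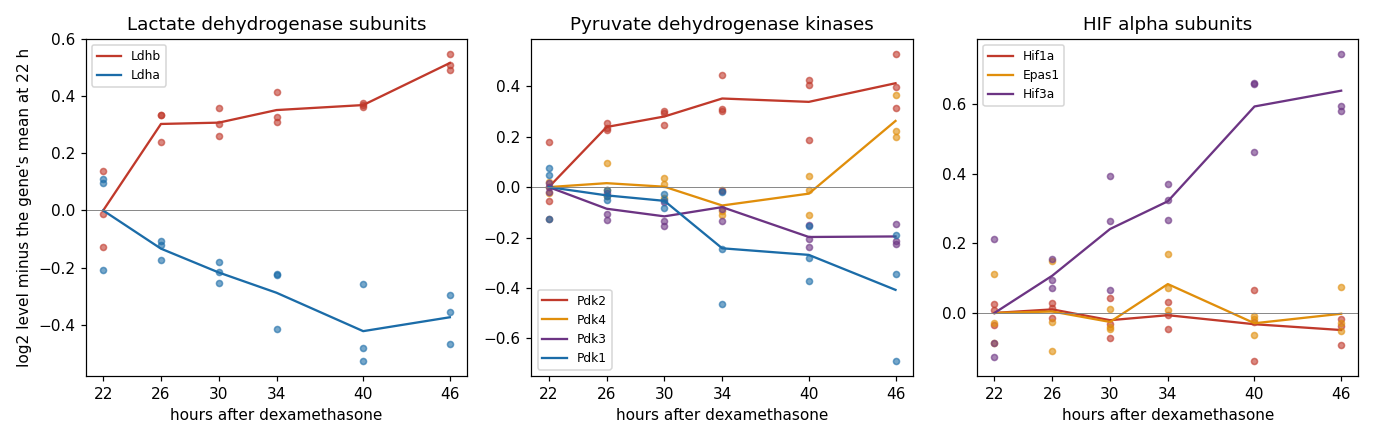
Level of each gene minus its own mean at 22 h, in log2, against hours after dexamethasone; points are arrays (3 per time) and lines join means. Ldhb ends 0.52 above and Ldha 0.37 below its 22 h mean; Pdk2 and Pdk4 end above and Pdk1 and Pdk3 below; Hif3a ends 0.64 above, while Hif1a and Epas1 stay near 0.

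The genes of the kinases that restrain pyruvate dehydrogenase inside the mitochondria divided too. Pdk2 rose by 0.41 ± 0.08 and Pdk4 by 0.26 ± 0.06, while Pdk1, a HIF target, fell by 0.41 ± 0.11 and Pdk3 by 0.20 ± 0.05. Pdk4 did not pass with arrays shifted to a common median (adjusted p = 0.0543), nor Pdk1 without replicate 1 or 3 at 22 h or replicate 3 at 46 h (adjusted p from 0.0535 to 0.0857). The phosphatase gene Pdp1 rose by 0.22 and Pdp2 fell by 0.20; Pdp1 was lost without replicate 1 at 22 h or 3 at 46 h, with a common array median and when only the arrays of the 2 times were fitted (adjusted p from 0.0553 to 0.118). Pdp2 was lost without replicate 1 at 22 h or 1 at 46 h and with the values as deposited (adjusted p up to 0.0794). In the list as a whole 6 of 12 measured genes passed (21.2% of all genes), 3 in each direction, but 1 higher and 5 lower with a common array median.

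In the tricarboxylic acid cycle, which takes up the products of pyruvate, 3 of 16 measured genes passed, a share near the 21.2% of all genes. Suclg2 and Idh3g were lower and Ogdh higher, with all 16 between -0.34 and 0.17. Without replicate 3 at 22 h or replicate 2 at 46 h 0 of 16 passed by limma, and leaving out other single arrays gave from 1 to 3. Over the 6 times 0 of 16 passed by limma's F test, against 19.8% of all genes. At an unadjusted p under 0.05, 2 of 16 passed that test, against 34.5% of all genes. With single arrays left out, the call of Suclg2 was kept in 15 of 18 fits, that of Ogdh in 6 and that of Idh3g in 4. The Idh3g call was lost without replicate 2 at 22 h (-0.11, adjusted p = 0.179) or at 40 h (adjusted p = 0.0526), among other arrays. With a common array median Ogdh did not pass and 3 were lower. In the pentose phosphate pathway, which branches off after hexokinase, 2 of 7 measured genes passed, 1 in each direction (11.5% of all genes higher and 9.73% lower), against 1 higher and 4 lower with a common array median. Tkt, a transketolase, fell by 0.53 ± 0.10 and H6pd, the dehydrogenase of the endoplasmic reticulum, rose by 0.37 ± 0.08.

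Other HIF targets were likewise divided. Of 27 measured beyond the 4 above, 9 fell (9.73% of all genes) and 3 rose (11.5%), with a median of -0.11 (0.03 over all genes). Tfrc, the transferrin receptor that brings iron into cells, fell most, to 7.73, 7.43 and 7.45 at 46 h, against 8.94, 8.27 and 8.71 at 22 h (-1.10 ± 0.15, adjusted p = 4.85e-05, limma). Fam162a fell by 0.49, Egln3, a HIF prolyl hydroxylase that HIF itself induces, by 0.37, the lipoprotein receptor gene Vldlr by 0.32 and the histone demethylase gene Kdm3a by 0.30. Lox, which encodes the enzyme that crosslinks collagen, rose by 0.33 ± 0.05. With arrays shifted to a common median, 16 genes of the full list of 31 were lower and 3 higher, against 11 and 5 after quantile normalization.

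**Figure D4:**
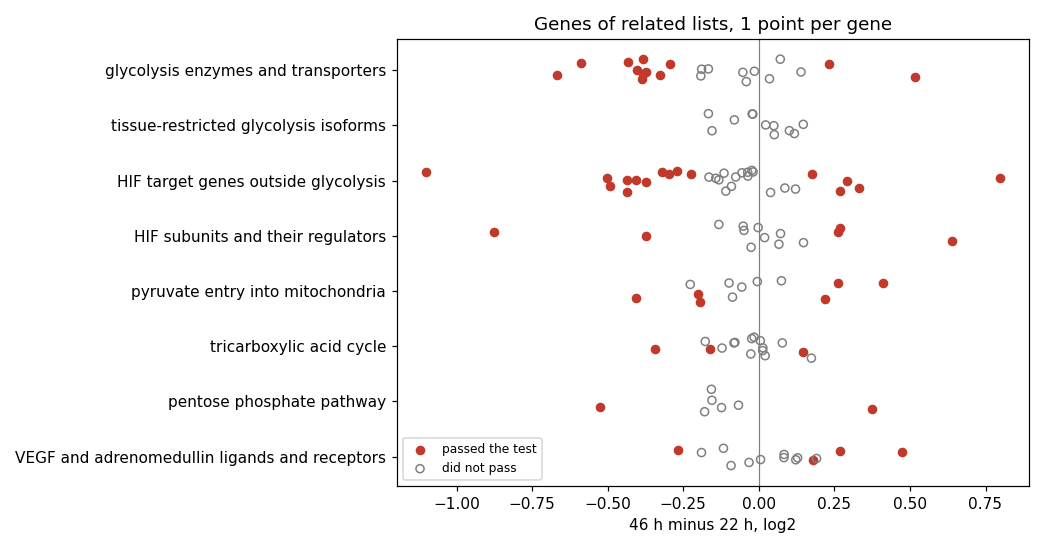
Difference between 46 h and 22 h in log2 for each measured gene of 8 lists, 1 point per gene, with the 10 genes shown in their lists; vertical jitter has no meaning. Filled red points passed limma's test at an adjusted p under 0.05 and open grey points did not. The lists of glycolysis enzymes and of HIF targets hold more filled points to the left of 0 (10 and 11) than to the right (2 and 5).

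The transcripts of the main HIF alpha subunits did not pass. Hif1a read 11.95, 11.89 and 11.97 at 46 h, against 12.01, 11.95 and 11.99 at 22 h, a difference of -0.05 with a 95% interval of -0.16 to 0.06. For Epas1, which encodes the second main alpha subunit, the interval of the difference was -0.14 to 0.14. Oxygen acts on HIF mainly through the stability of its alpha subunit proteins, which the arrays do not measure. Hif3a, whose product can restrain the other HIF factors, rose by 0.64 ± 0.09, to 9.19, 9.18 and 9.34 at 46 h, against 8.47, 8.81 and 8.51 at 22 h.

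Among partners and regulators of HIF, Arnt2 rose by 0.26 and Vhl by 0.27; Vhl did not pass with arrays shifted to a common median (0.15, adjusted p = 0.125). Myc fell by 0.88 ± 0.09, and Egln3 fell as given above. Arnt was 0.15 higher and did not pass (adjusted p = 0.0526, limma), passing under 4 of the other settings and without any 1 of 3 arrays, replicate 2 at 40 h among them (adjusted p = 0.0409). The hydroxylase genes Egln1 (-0.13), Egln2 (0.07) and Hif1an (-0.05) and the coactivator genes Crebbp (0.07), Ep300 (-0.03) and Cited2 (0.02) did not pass. Without replicate 2 at 22 h, Egln1 passed as lower (-0.20, adjusted p = 0.0185). In this list 5 of 14 genes passed, 3 higher (11.5% of all genes) and 2 lower (9.73%). With a common array median 2 were higher and 5 lower, while of all genes 1848 were called higher and 3275 lower.

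Genes for the ligands and receptors around Vegfa and Adm were also examined, and 3 of 14 rose (11.5% of all genes) and 1 fell (9.73%), against 4 and 0 with the values as deposited and 2 and 2 with a common array median. Vegfd, a ligand for the lymphatic VEGF receptor, rose by 0.47 ± 0.07 and Vegfc, a ligand of the same receptor, fell by 0.27 ± 0.06. Calcrl, whose product forms the adrenomedullin receptor with RAMP2 or RAMP3, rose by 0.27 ± 0.06. Ramp1, whose product forms the CGRP receptor with it instead, rose by 0.18 ± 0.06. Calcrl was lost with arrays shifted to a common median (adjusted p = 0.0842), Vegfc with the values as deposited (adjusted p = 0.0682), and Ramp1 without replicate 1, 2 or 3 at 22 h or replicate 2 or 3 at 46 h or when only the arrays of the 2 times were fitted (adjusted p from 0.0577 to 0.109).

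The genes most like Pgk1 over the 18 arrays, by Pearson r, were Gap43, a growth cone protein (0.974), Prune2 (0.973), the RNA-editing deaminase gene Apobec1 (0.972), the annexin gene Anxa8 (0.968) and Utp20, a ribosome assembly factor (0.968). Their differences between 46 h and 22 h ran from -0.39 for Utp20 to -1.27 for Gap43. Those most like Adm were the integrin genes Itga8 (0.970) and Itga7 (0.955), the actin-binding Ablim1 (0.964), the Wnt agonist gene Rspo2 (0.960) and Pik3r1, a regulatory subunit of phosphoinositide kinase (0.957). Their differences ran from 0.53 for Pik3r1 to 0.99 for Rspo2. These likenesses rest on arrays that share times and processing and are given with no test.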

How the data were processed

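Total RNA from 18 samples was hybridised singly to 1-colour Affymetrix arrays after whole-transcript labelling, as the labels' protocols state. The authors deposited a linear intensity for each probe set. The submitters' processing notes name Expression Console 1.1 and PLIER 2.0 of Affymetrix, without order or settings. All value columns were used.

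Of 35556 probe sets, 21789 had 1 gene symbol in the platform annotation, 1621 had several and 12146 were unnamed here. Gene identifiers were looked up in RefSeq (GRCm38.p6), where 21698 matched and 0 symbols changed. Where a gene had several probe sets (999 genes), that of highest mean stood for it, which gave 19938 genes. Values were taken as log2(intensity + 16) and quantile normalized over all probe sets. Limma 3.58.1 in R 4.3.3 fitted the 6 time means to all 18 arrays, for an F test, for 46 h minus 22 h, 34 h minus 22 h and 46 h minus 34 h, and, in a separate fit, a cosine and sine of 24 h. P-values were adjusted by Benjamini-Hochberg over all genes, with a threshold of 0.05. The fits were tested on simulated data. Intervals are at 95% and unadjusted, and precision is limited by the 3 arrays per time.

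The members and lists were chosen with earlier results of these data known. Named were all members, up to 6 called genes with the smallest p for 46 h minus 22 h from each pathway list, all measured HIF regulators, and the 5 genes with the highest correlation with the member of each group that had the smallest p in the F test, passing over unnamed gene models and olfactory and vomeronasal receptors. Of the other marker lists, 2 of 8 skeletal muscle, 1 of 8 endothelial and 1 of 8 epithelial genes rose, 2 epithelial, 1 of 8 neural and 1 of 8 macrophage genes fell, and 0 of 4 erythroid genes passed. Alternatives were the values as deposited, arrays shifted to a common median, constants of 1 and 64, the genes above the median brightness, a replicate block, array weights, a trended robust variance, a stricter threshold, fits of 2 times only, leaving out each array, and, for the cosine, other periods or an added linear trend. Promoter windows are RefSeq's, matched by symbol for 10 of 10 genes.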

Additional observations from a re-analysis of the deposited data

How the results depend on the processing

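Of 1056 values of single genes under settings other than leaving out an array, 992 kept their direction and their side of the threshold, 37 lost a call, 20 gained one and 7 turned in sign. Of 1734 values with 1 array left out, 1641 kept both. The counts of all genes called were 3957 over the 6 times, 4234 for 46 h against 22 h, 1882 for 34 h against 22 h, 712 for 46 h against 34 h and 165 for the 24 h cosine. With the values as deposited, 6595 genes passed over the 6 times and 541 for the cosine. With arrays shifted to a common median, 6141, 1234 and 1125 genes passed over the 6 times, for 46 h against 34 h and for the cosine, and 2 members for 46 h against 34 h, 1 of them lower. Among genes above the median brightness 2 members passed for 46 h against 34 h, 1 of them lower. With array weights 10765, 8790, 6717, 1493 and 1043 genes passed, in the order of tests given first, and 9 members for 34 h against 22 h (8 lower) and 2 for 46 h against 34 h (1 lower). At an adjusted p under 0.01 the counts were 1845, 2391, 784, 304 and 9, with 3 members for 34 h against 22 h (2 lower). Fitting only the arrays of 34 h and 22 h gave 819 genes and 3 members (2 lower). The cosine was called for 5 genes with a period of 22 h, for 1985 genes and 1 member with 26 h, and for 34 genes when a linear trend was added. Leaving out single arrays gave 2631 to 4685 genes and 7 to 9 members over the 6 times, 2789 to 4741 genes and 8 to 10 members (7 to 8 lower) for 46 h against 22 h, 737 to 3179 genes and 2 to 7 members (1 to 6 lower) for 34 h against 22 h, 295 to 786 genes and 1 member (0 lower) for 46 h against 34 h, and 22 to 298 genes and 0 members for the cosine. Small differences turned in sign. Vegfa for 34 h against 22 h was 0.03, but -0.0131 with the values as deposited and -0.0138 with a common array median, and -0.00617 to 0.0512 with single arrays left out. Hk2 for 46 h against 34 h was -0.0645 to 0.0299 with single arrays left out. For 46 h against 22 h, Cited2 was -0.0205 as deposited, -0.0867 with a common median and -0.0197 to 0.0585 with single arrays left out; Epas1 was 0.0593 as deposited and -0.0449 to 0.0543 with single arrays left out. Ep300 was -0.0470 to 0.00131 with single arrays left out, and with a common median Egln2 was -0.0481 and Crebbp -0.0280. The ratio of Ldhb to Ldha moved between 0.872 and 0.907 log2 under other settings and between 0.778 and 1.06 with single arrays left out, and was added after the data were seen. The cause of these shifts was not tested.

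No pairing of the samples by replicate number was seen, though shared handling of single arrays was not tested. Deviations of the 45 pairs of arrays that share a number had a median correlation of -0.10 (-0.56 to 0.49), against 0.07 for 90 pairs with different numbers, and 6 of 18 arrays correlated best with their own number. With the replicate number as a block, 3220, 3838, 1516, 572 and 32 genes passed in the order of tests above, and 9, 10, 4, 1 and 0 members, Ldha being lost for 34 h against 22 h (adjusted p = 0.067). A probe set near background has only a compressed difference on this scale, and no detection call was used.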
